A study of Homo sapiens with 12 samples.

Results

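The genes described here are the very long protein-coding genes of HCC1806 cells, an established human triple-negative breast cancer line of basal, squamous-like character. A gene was a member when its whole annotated span on GRCh38, introns included, reached 500 kb in GENCODE release 44 and its symbol was neither a collagen nor a laminin gene. Of the 17013 rows of the expression table, 13611 were protein coding and 184 of those reached 500 kb. After 2 of them were left out by the rule (a laminin gene and 1 other gene), 182 members remained, or 1.07% of the rows. The annotation holds 321 such genes, and 139 of them had no row in the table and were not analysed here. The rule used gene length and not any measured value, and the members just above the limit were ANO5 at 500.9 kb, DNAH14 at 503.0 kb and PPP2R2B at 504.0 kb, while DIAPH3 at 498.3 kb, ITPR2 at 497.8 kb and CACNA2D1 at 497.5 kb fell just below it.

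Cells were transfected with a non-targeting siRNA (siNT) or with a pool of siRNAs against MLK4 (siMLK4), a mixed-lineage kinase encoded by MAP3K21, and were then given vehicle or 1 µM doxorubicin for 24 h. Each of the 4 groups, siNT with vehicle, siNT with doxorubicin, siMLK4 with vehicle and siMLK4 with doxorubicin, had 3 mRNA-seq libraries, which makes 12 in all. The vehicle samples are labelled DMSO in one field and time 0 in another, and the methods call them untreated. A supplementary figure legend gives 24 h of treatment with either DMSO or the drug. If the vehicle samples were collected earlier, as the time 0 label reads, culture time and drug cannot be told apart. All libraries came from a single cell line, and the pool is given in the methods for MLK4 silencing in general. For these libraries the methods state triplicate transfections but not whether they were made on separate occasions, so the p-values measure only the spread between these samples, which may be technical. The table covered 16759025 to 19302248 reads per library.

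Most of the span of such a gene is intron, and RNA polymerase II needs hours to travel along it. Doxorubicin intercalates into DNA and traps topoisomerase II on it, and topoisomerases relieve the torsion that builds up in front of a transcribing polymerase. Very long genes are also known for being expressed in neurons and for lying at common fragile sites, places where chromosomes break under replication stress. The members' median span was 703.8 kb against 33.0 kb for the 13427 shorter coding genes, their median canonical mRNA was 7.24 kb against 3.32 kb, and the mRNA made up a median of 0.966% of the span against 10.279%. The longest intron had a median of 169.8 kb in members and 8.9 kb in shorter genes. Members lay most often on chromosomes 1 (20 genes), 3 (19 genes) and 7 (18 genes).

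The siRNA labels were checked on MAP3K21, which has a span of 57.4 kb and is not a member. Its normalised read counts, that is reads divided by a size factor per library, were 553.1, 669.6 and 673.6 in siNT cells with vehicle and 103.2, 94.66 and 88.65 in siMLK4 cells with vehicle. With doxorubicin they were 757.7, 856.1 and 771.6 in siNT and 112.8, 138.4 and 94.36 in siMLK4 cells. The knock-down left 15.11% of the siNT level with vehicle (limma, log2 fold change −2.24, SE 0.12, adjusted p = 9.7e-08) and 14.49% with doxorubicin (−2.37, adjusted p = 1.1e-07), with no overlap between the siRNA groups. The cell type was checked on 8 basal and squamous markers, all of which were detected. Their summed normalised read count ran from 62120 to 76630 in the vehicle libraries and from 23470 to 34980 with doxorubicin, and KRT5, a basal keratin, was the most abundant in all 12. Of 12 stromal, endothelial and immune markers, 6 had a row, namely COL1A1, LUM, PDGFRB, VWF, PTPRC and CD14. COL1A2, DCN, PECAM1, CDH5, CD3E and MS4A1 had none. The 6 with a row summed to 349.1 to 928.6 normalised reads, most of it from COL1A1, a collagen. LUM had 104 to 215 reads before scaling in the vehicle libraries. The 5 hormone receptor markers, all with a row, summed to 2754 to 5231 normalised reads, with ERBB2 or GATA3 the most abundant.

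The promoters of 4 members are shown because these genes head the groups that fell and rose with doxorubicin. SBF2 and LPP had the largest falls in siNT cells on the deposited log2 scale, and EGLN3 and KALRN the largest rises. The windows run from 250 bases before to 50 bases after the start given by RefSeq on GRCh38.p14, on the strand of the gene, and capitals mark matches on either strand to the TATA box (searched as TATAAA), the box bound by NF-Y (searched as CCAAT) or the AP-1 site (searched as TGANTCA). The positions are chr11:10304792-10305091 on the minus strand for SBF2, chr3:188153648-188153947 on the plus strand for LPP, chr14:33951025-33951324 on the minus strand for EGLN3 and chr3:124094457-124094756 on the plus strand for KALRN.
SBF2: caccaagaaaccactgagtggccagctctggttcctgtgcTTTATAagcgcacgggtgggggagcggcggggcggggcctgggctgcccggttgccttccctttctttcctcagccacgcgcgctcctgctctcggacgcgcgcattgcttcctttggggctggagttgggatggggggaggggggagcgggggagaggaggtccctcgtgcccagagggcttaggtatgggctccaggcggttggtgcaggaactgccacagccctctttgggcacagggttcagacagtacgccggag
LPP: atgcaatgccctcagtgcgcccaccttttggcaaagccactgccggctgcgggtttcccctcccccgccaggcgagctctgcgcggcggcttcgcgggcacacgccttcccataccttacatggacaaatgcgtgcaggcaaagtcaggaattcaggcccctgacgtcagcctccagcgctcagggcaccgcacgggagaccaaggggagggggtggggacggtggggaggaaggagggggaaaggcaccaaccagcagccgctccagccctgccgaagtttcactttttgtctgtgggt
EGLN3: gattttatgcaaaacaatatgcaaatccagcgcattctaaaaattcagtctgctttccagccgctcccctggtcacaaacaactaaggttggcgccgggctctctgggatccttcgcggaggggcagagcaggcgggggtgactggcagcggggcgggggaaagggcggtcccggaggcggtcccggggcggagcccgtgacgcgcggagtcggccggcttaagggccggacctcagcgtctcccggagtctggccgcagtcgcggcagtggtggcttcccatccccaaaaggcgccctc
KALRN: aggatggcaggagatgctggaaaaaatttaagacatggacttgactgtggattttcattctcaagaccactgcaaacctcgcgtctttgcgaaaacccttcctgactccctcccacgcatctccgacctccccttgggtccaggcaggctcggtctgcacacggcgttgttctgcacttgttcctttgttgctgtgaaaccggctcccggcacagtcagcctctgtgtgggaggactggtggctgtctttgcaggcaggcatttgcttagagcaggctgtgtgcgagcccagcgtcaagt
The SBF2 window held 1 TATAAA, which reads TTTATA on the printed strand, and the other windows held none of the 3 motifs. RefSeq windows were matched for 155 of the 182 members. TATAAA was present in 9.03% of them, CCAAT in 30.97% and TGANTCA in 5.16%, against 5.99%, 36.94% and 4.72% of 10837 windows of shorter coding genes with a row and 11.95%, 35.7% and 7.76% of all 27305 windows. Of the 36 windows of members called lower with doxorubicin in either siRNA group, 5 (13.89%) held TATAAA, 27.78% CCAAT and 8.33% TGANTCA. Of the 18 windows of members called higher, 3 (16.67%) held TATAAA, 33.33% CCAAT and 0% TGANTCA. A match is a run of letters and not a shown binding site.

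Members were expressed at low levels. Their median normalised read count, taken over the means of the 4 groups, was 108.3 (interquartile range 21.1 to 365.0) against 508.7 (130.6 to 1274.7) for shorter coding genes. Per kb of exon the medians were 8.07 and 89.14 normalised reads. In 57 members (31.32%) the mean stayed under 30 normalised reads, against 11.75% of shorter genes, and 92 members reached 100. The highest per kb of exon were ADK, adenosine kinase, at 403.11, PTPRK, a receptor tyrosine phosphatase, at 248.45, EXOC6B, a subunit of the exocyst, at 196.04, PARD3, a cell polarity scaffold, at 187.15, and GMDS, the first enzyme of GDP-fucose synthesis, at 183.17. Every row of the table had at least 10 reads in 1 library or more, a property shared by all 17013 rows, and 136 members had a mean of at least 10 normalised reads in each group. In 145 members each group had a library with 10 reads or more, and in the other 37 at least 1 group had none, so that their presence rested on the groups where they were higher.

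With doxorubicin in siNT cells, 28 members fell and 12 rose (limma, adjusted p under 0.01 over all rows and a log2 fold change beyond 0.75). As shares of the 182 members these are 15.38% and 6.59%, beside 10.6% of all rows called lower and 12.1% called higher. In siMLK4 cells 36 members fell (19.78%) and 18 rose (9.89%), beside 10.6% and 12.6% of all rows. Doxorubicin thus had more falls than rises among the members in both siRNA groups, while all rows had more rises than falls. Coding genes under 500 kb also had more falls in siNT cells in each class of span. Falls and rises were 12.54% and 11.52% under 20 kb and 14.4% and 9.56% at 200 to 500 kb. In siMLK4 cells these classes went both ways, with 11.89% and 12.12% under 20 kb and 16.01% and 11.06% at 200 to 500 kb. That split of all rows turned when rows without 10 reads in every library were left out, with 1679 lower and 1253 higher of 13295 in siNT cells, where members had 27 lower and 4 higher. The falls were led by SBF2, LPP, TTC28, TBC1D5, CHRM3 and RYR2, which dropped to between 21.4% and 40.03% of the vehicle level in siNT cells, and the rises on the deposited log2 scale by EGLN3 and KALRN, which reached 7.23 and 7.57 times theirs. Members with few vehicle reads had larger ratios, such as DPP6, described with the interaction. Across the siRNA groups 23 members were lower in both, 10 were higher in both and 0 were called in opposite directions. The first counts are 12.64% and 5.49% of the members, beside 7.59% of all rows lower in both and 8.82% higher in both. Another 121 members were called in neither. In bulk libraries such as these, fewer cells of one kind and less RNA per cell cannot be told apart.

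The median log2 fold change over all 182 members was −0.12 in siNT and −0.14 in siMLK4 cells, beside 0.01 and 0.02 over all rows. Against shorter genes of equal mean, the rule's own comparison, each member's change was set beside the median of the coding genes under 500 kb in the same bin of mean normalised reads over the 4 groups. The median of these differences was −0.10 in siNT and −0.18 in siMLK4 cells, and 113 and 114 of the 182 members lay below the shorter genes of their bin. Weighted to the members' bins, the shorter genes had 10.03% called lower and 13.3% higher in siNT cells and 10.41% and 15.25% in siMLK4 cells. These medians moved with single libraries. Without siNT vehicle replicate 3 the siNT median was −0.01 and the median against shorter genes −0.06, and without siNT vehicle replicate 1 they were −0.19 and −0.19. Scaling by library totals instead of size factors shifted the median of all rows to 0.18 in siNT and 0.16 in siMLK4 cells. Under that scaling the members' medians were 0.05 and 0.01, which relative to all rows is −0.129 and −0.155, and the members split into 20 lower and 17 higher in siNT and 29 lower and 22 higher in siMLK4 cells. All rows then had 6.43% lower and 16.7% higher in siNT and 7.49% and 17.0% in siMLK4 cells.

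The split of falls and rises differed by level of expression. Among the 92 members with a mean of at least 100 normalised reads, 25 fell (27.17%) and 2 rose (2.17%) in siNT cells, while of the 10456 shorter coding genes at that level 14.37% fell and 8.53% rose. In siMLK4 cells the same counts were 25 and 3 (27.17% and 3.26%) against 13.24% and 9.45%. The median member of this class stood at 75.1% of its vehicle level in siNT and 75.7% in siMLK4 cells, and the median shorter gene at 91.4% and 95.2%. This class was chosen after the data were seen. Leaving out any 1 library left 21 to 26 members lower in siNT and 21 to 28 in siMLK4 cells, and library totals as scaling left 17 and 20, beside 8.51% and 9.05% of shorter genes. Among the 33 members at 30 to 100 normalised reads, 3 fell (9.09%) and 2 rose (6.06%) in siNT cells, where 9.69% of the shorter genes of that level fell and 20.46% rose. In siMLK4 cells 9 of these members fell (27.27%) and 4 rose (12.12%), beside 12.13% and 20.17%. Among the 57 members under 30 normalised reads, 0 fell and 8 rose in siNT cells, and 2 fell and 11 rose in siMLK4 cells. The deposited log scale compresses differences, most strongly at such low counts, and leaves these genes little room for a fall. Of the shorter genes at this level 2.47% fell and 13.81% rose in siNT cells, and 4.31% fell and 18.38% rose in siMLK4 cells. The members' shares were 0% and 14.04% in siNT and 3.51% and 19.3% in siMLK4 cells. The 12 members that rose in siNT cells had a median vehicle level of 3.24 normalised reads, and the 28 that fell one of 992. Of the risers, 8 of the 12 in siNT and 11 of the 18 in siMLK4 cells had under 10 reads in each vehicle library of their own siRNA group, and 7 and 9 of them in the vehicle libraries of both, so that these last had their rows through doxorubicin libraries and the counts of rises are a description.

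**Figure D1:**
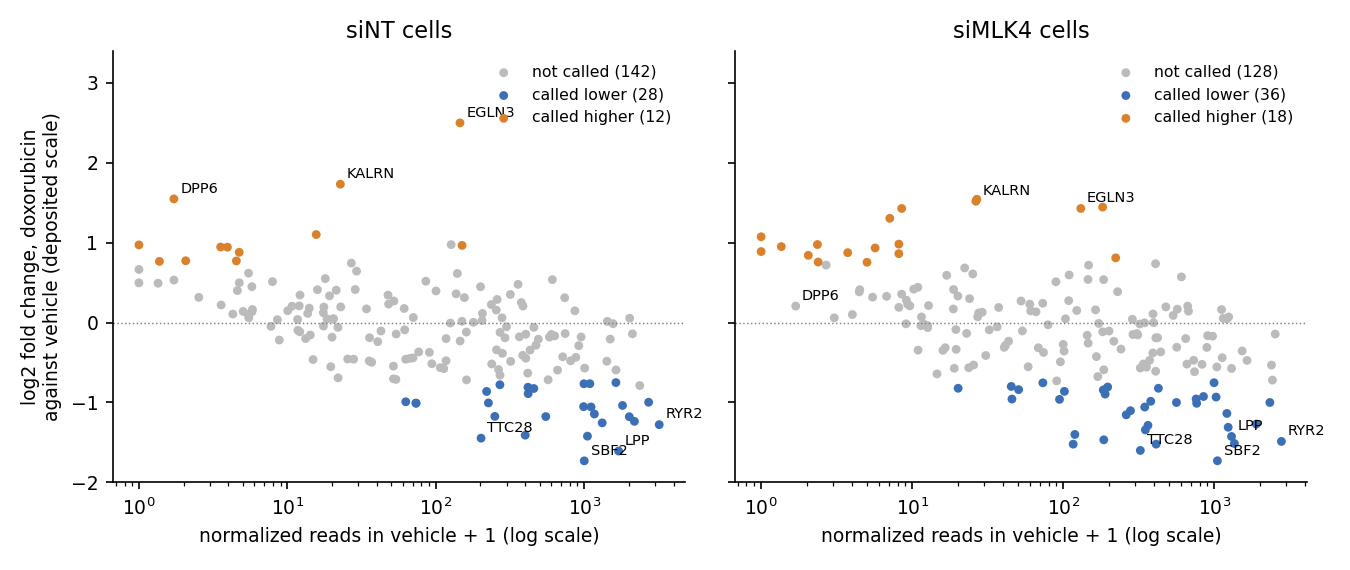
Each point is 1 of the 182 members, with the mean normalised reads in vehicle plus 1 on the horizontal log axis and the log2 fold change with doxorubicin (deposited log2 scale) on the vertical axis, for siNT cells on the left and siMLK4 cells on the right. Blue points were called lower (28 and 36) and orange points higher (12 and 18), and 10 of the 12 and 15 of the 18 orange points have under 30 normalised reads in vehicle.

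The share of falls was also read by span within the coding genes of at least 100 normalised reads, the class chosen after the data were seen. In siNT cells it was 14.74% of 3500 genes under 20 kb, 12.01% of 1357 genes of 100 to 200 kb, 17.88% of 643 genes of 200 to 500 kb and 24.14% of 58 members of 500 to 750 kb. It was 30% of 20 members of 750 to 1000 kb and 35.71% of 14 members over 1000 kb, and these last shares rest on 6 and 5 genes. The siMLK4 shares were 13.03%, 11.20%, 19.75%, 24.14%, 30% and 35.71%. Rises made up 10.06% of the genes under 20 kb, 5.60% at 200 to 500 kb, 1.72% at 500 to 750 kb, 5% at 750 to 1000 kb and 0% above in siNT cells. In siMLK4 cells the same shares were 10.54%, 6.53%, 5.17%, 0% and 0%. Over the 92 members these rises number 2 and 3. The rising order held in siMLK4 but not in siNT cells when members of every level were taken, and in neither by the span of the canonical transcript. With members of every level the siNT shares of falls were 14.15%, 17.39% and 16.67% in the 3 member classes, and the siMLK4 shares 16.98%, 21.74% and 26.67%. By the span of the canonical transcript they were 21.52%, 16.67% and 5.26% in siNT and 24.05%, 25% and 15.79% in siMLK4 cells, again at every level. From 100 normalised reads up the canonical classes gave 33.33%, 41.67% and 16.67% in siNT and 31.25%, 41.67% and 16.67% in siMLK4 cells, of 48, 12 and 6 members. Over all 13611 coding genes at every level, Spearman's rank correlation between span and change was −0.03 in both siRNA groups, and among the 182 members it was −0.07 in siNT and −0.10 in siMLK4 cells. These genes share libraries and are not independent, and the values are a description.

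**Figure D2:**
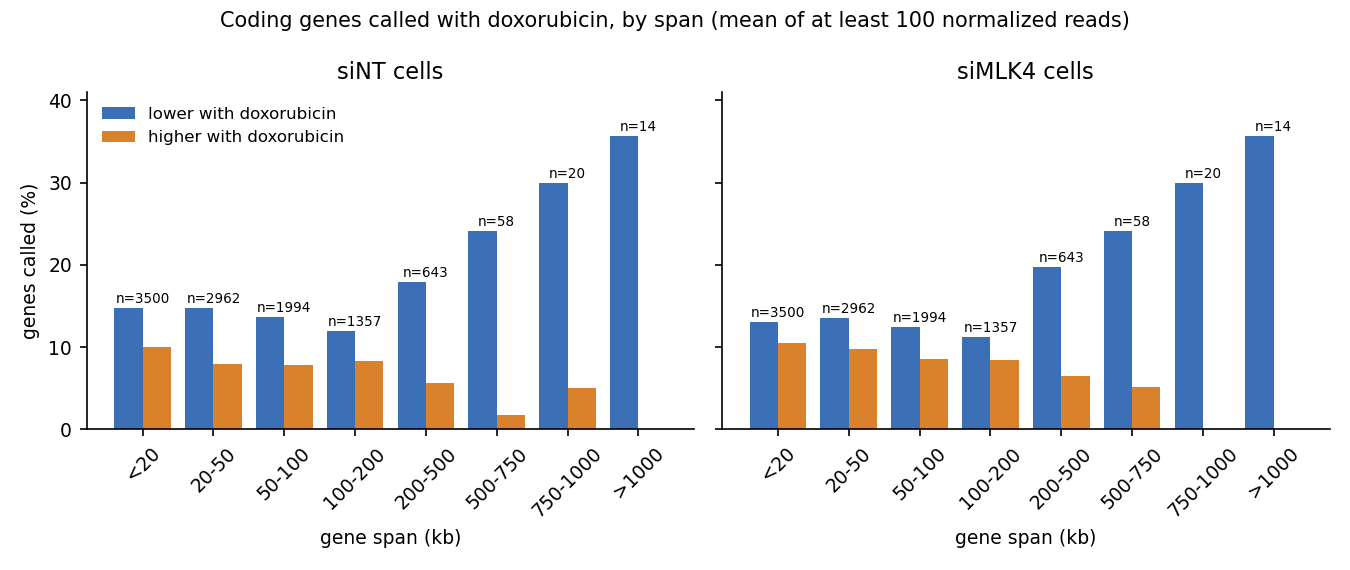
Bars give the percentage of protein-coding genes called lower (blue) and higher (orange) with doxorubicin, in siNT cells on the left and siMLK4 cells on the right, for classes of gene span in kb, with the number of genes above each pair and only genes with a mean of at least 100 normalised reads. The blue bars lie between 11.20% and 14.74% up to 200 kb and reach 24.14% to 35.71% in the 3 classes of members.

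A long span goes with a long mRNA, so the members were also split at a canonical mRNA of 7 kb. Of the 48 members with at least 100 normalised reads and an mRNA of 7 kb or more, 16 (33.33%) fell in siNT cells, and of the 44 with a shorter mRNA 9 (20.45%) did. Genes under 100 kb at the same level of at least 100 normalised reads were split alike. Of the 686 with an mRNA of 7 kb or more 11.22% fell, against 14.77% of the 7770 with a shorter mRNA. The siMLK4 shares were 33.33%, 20.45%, 10.64% and 13.28%. Which isoforms these cells used was not measured. In 48 members the canonical transcript covers under 500 kb, and among these 4 fell and 4 rose in siNT cells with a median log2 fold change of 0.05. Among the 134 whose canonical transcript itself reaches 500 kb, 24 fell (17.91%) and 8 rose (5.97%) with a median of −0.16. In siMLK4 cells the counts were 5 and 6 (median −0.01) against 31 and 12 (23.13% and 8.96%, median −0.15). All rows had 10.6% lower and 12.1% higher in siNT and 10.6% and 12.6% in siMLK4 cells.

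Seen by library, members took 0.281, 0.323 and 0.381% of the reads in siNT cells with vehicle and 0.254, 0.301 and 0.278% with doxorubicin, which overlap. In siMLK4 cells they took 0.405, 0.345 and 0.296% with vehicle and 0.287, 0.307 and 0.269% with doxorubicin, which overlap as well. The group means were 0.328% ± 0.05, 0.278% ± 0.024, 0.349% ± 0.055 and 0.288% ± 0.019 (SD, n = 3). Set against shorter genes of equal mean on the deposited log2 scale, the median member deviated from its mean over all libraries by −0.02, 0.06 and 0.24 in siNT cells with vehicle and by −0.15, −0.04 and −0.06 with doxorubicin. In siMLK4 cells the values were 0.22, 0.10 and 0.00 (−0.003 unrounded) against −0.10, −0.09 and −0.15. The vehicle and doxorubicin libraries did not overlap within either siRNA group on this measure.

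The vehicle libraries differed more among themselves than the doxorubicin libraries did. Members stood high in siNT vehicle replicate 3 and siMLK4 vehicle replicate 1 and low in siNT vehicle replicate 1 and siMLK4 vehicle replicate 3. The share of reads on coding genes under 20 kb moved the other way, at 37.9, 35.2 and 33.1% in siNT and 33.3, 35.4 and 40.2% in siMLK4 cells with vehicle. Its part in the results on members was not tested.

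**Figure D3:**
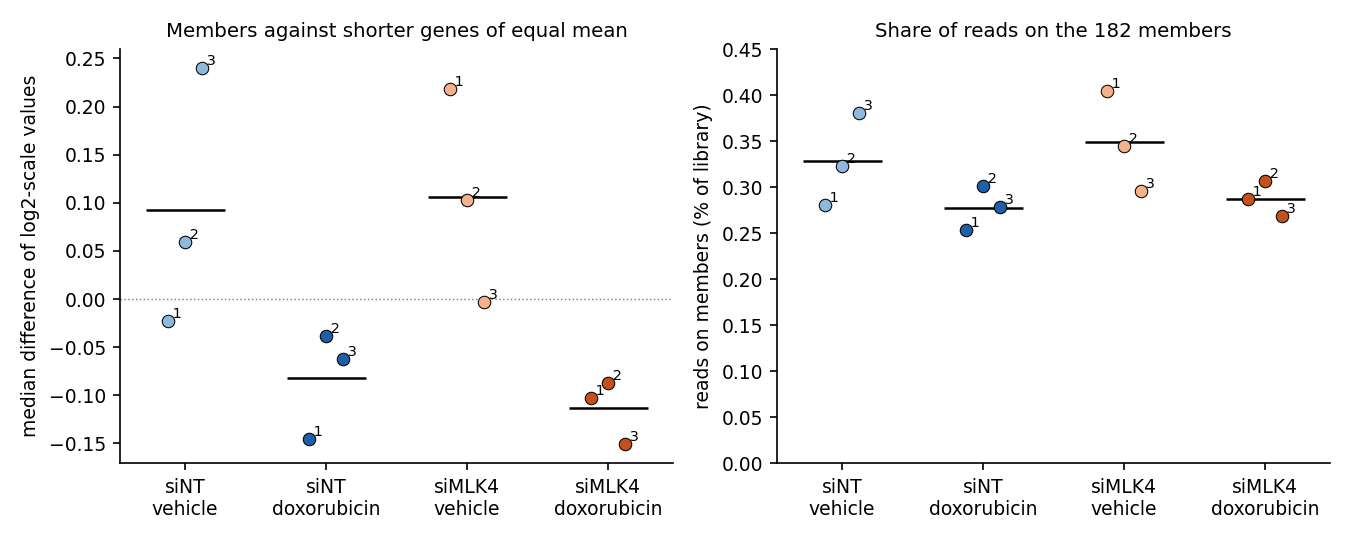
Points are the 12 libraries, numbered by replicate and grouped by siRNA and treatment, with a line at each group mean. The left panel gives the median deviation of the members minus that of shorter genes of equal mean (log2-scale units), where every doxorubicin library lies below every vehicle library of the same siRNA, and the right panel the percentage of reads on members, where the groups overlap.

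Grouped by role, the members formed small lists whose counts are a description, to be read beside the shares of all rows, 10.6% lower and 12.1% higher in siNT and 10.6% and 12.6% in siMLK4 cells. Among members of the cytoskeleton and of membrane traffic, 33 genes, 7 fell and 2 rose in siNT cells (median log2 fold change −0.21) and 8 fell and 2 rose in siMLK4 cells (median −0.47). TTC28, a tetratricopeptide protein of the midzone and midbody of dividing cells, had 109.2, 217.0 and 276.2 normalised reads with vehicle and 33.22, 49.88 and 45.63 with doxorubicin in siNT cells, and 417.8, 311.9 and 238.9 against 65.29, 83.38 and 71.67 in siMLK4 cells. Neither pair of groups overlapped, and the log2 fold changes were −1.45 (SE 0.23, adjusted p = 9.4e-05) and −1.60 (adjusted p = 4e-05). TBC1D5, a Rab GTPase-activating protein of the retromer pathway, went from 772.7, 1009 and 1368 to 267.6, 386.8 and 410.6 in siNT cells, 33.8% of the vehicle level, and to 44.6% in siMLK4 cells. NBEA, neurobeachin, a BEACH-domain protein of vesicle traffic, stood at 38.6% and 30.5% of its vehicle levels. KALRN, a guanine nucleotide exchange factor for small GTPases, rose from 19.96, 22.84 and 22.45 to 146.7, 197.5 and 150.1 in siNT cells and from 26.05, 32.88 and 17.30 to 163.7, 136.7 and 137.0 in siMLK4 cells. Its log2 fold changes were 1.73 (SE 0.13, adjusted p = 2e-07) and 1.52 (adjusted p = 6.3e-07), without overlap in either.

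SBF2, a member of the myotubularin-related family that acts on Rab GTPases, was on none of the role lists and had the largest fall on the deposited log2 scale in both siRNA groups. It counted 712.8, 994.6 and 1290 normalised reads with vehicle and 217.8, 241.2 and 322.4 with doxorubicin in siNT cells, and 1279, 1177 and 688.6 against 263.7, 253.5 and 294.9 in siMLK4 cells. The doxorubicin libraries were all far below the lowest vehicle library, and the log2 fold changes were equal to within 0.001, at −1.73 (SE 0.22, adjusted p = 1.8e-05) in siNT and −1.73 in siMLK4 cells. The gene lies on chromosome 11 from 9776776 to 10304877 on the minus strand, a span of 528.1 kb with 40 exons in the canonical transcript.

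Adhesion and neuronal recognition genes formed the largest group, 39 members, of which 4 fell and 3 rose in siNT cells (median −0.05) and 8 fell and 6 rose in siMLK4 cells (median −0.14). LPP, a LIM-domain protein of focal adhesions, went from 1303, 1577 and 2225 to 410.7, 549.7 and 586.0 normalised reads in siNT cells (log2 fold change −1.61, SE 0.18, adjusted p = 5.7e-06). In siMLK4 cells it went from 1588, 1189 and 1123 to 456.2, 426.1 and 456.4 (−1.43, adjusted p = 1.6e-05). The doxorubicin libraries held 30.3% and 34.3% of the vehicle level, and no library overlapped. PCDH9, a protocadherin, rose in siNT cells from 119.8, 146.4 and 181.9 to 321.2, 393.9 and 295.0 (0.97, adjusted p = 0.00023), and in siMLK4 cells it had 161.2% of the vehicle level with an adjusted p of 0.013. SEMA5A, a semaphorin, rose in siMLK4 cells from 220.4, 170.4 and 153.5 to 597.8, 959.7 and 323.0 (1.44, adjusted p = 0.00091), with the doxorubicin libraries far apart from each other but all above the vehicle libraries.

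Ion channels, receptors and transporters numbered 11 members, with 3 lower and 2 higher in siNT cells and 3 and 3 in siMLK4 cells. RYR2, the ryanodine receptor known as the calcium release channel of heart muscle, went from 2543, 3362 and 3691 to 1086, 1399 and 1357 normalised reads in siNT cells. In siMLK4 cells it went from 3334, 2870 and 2143 to 914.9, 977.2 and 936.3. Both falls were free of overlap, to 40.03% (log2 fold change −1.28, SE 0.16, adjusted p = 1.8e-05) and 33.9% (−1.49, adjusted p = 4.9e-06). CHRM3, the M3 muscarinic acetylcholine receptor, fell to 29.7% and 32.8%, and MCTP1, a calcium-binding membrane protein with C2 domains, to 39.3% and 27.5%. GRM8, a metabotropic glutamate receptor, had 0 reads in all 3 siNT vehicle libraries and 14.77, 16.29 and 8.111 normalised reads with doxorubicin, which is at least 3.91-fold higher when each vehicle library is set to a floor of 3 reads. In siMLK4 cells it had 1 read over the vehicle libraries and 57 with doxorubicin, at least 5.23-fold higher on the same floor. The ratio of these summed reads was 47.9 after scaling (exact 95% counting interval 8.26 to 1930), which is not comparable with the siNT bound. GRM8 reached 10 reads in doxorubicin libraries alone, so the direction was set by its presence in the table. ATRNL1, an attractin-like membrane protein, rose in siMLK4 cells from 10.02, 4.982 and 7.568 to 82.25, 83.38 and 58.07 (1.43, adjusted p = 2e-06). In siNT cells it had 4, 3 and 5 reads before scaling with vehicle and 35, 15 and 14 with doxorubicin. That log2 fold change of 0.62 was short of the fold threshold on the deposited scale, and the difference of the 2 responses (0.81) was not called.

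Of the 28 kinases, phosphodiesterases and other signalling genes, 5 fell and 0 rose in siNT cells and 5 fell and 2 rose in siMLK4 cells, with medians of −0.04 and 0.13. ADK went from 3153, 2551 and 2439 to 1335, 1304 and 1334 normalised reads in siNT cells and from 2078, 2393 and 2529 to 1086, 1090 and 1239 in siMLK4 cells. It held 48.8% of its vehicle level in both (log2 fold changes −0.997, SE 0.12, and −1.0, both adjusted p = 7.2e-06). Among the 18 transcription, chromatin and RNA-binding genes 1 fell and 1 rose in siNT cells, and 2 fell and 1 rose in siMLK4 cells. The group of genome caretakers, metabolism and ubiquitin, 18 members, had 1 lower and 2 higher in siNT cells and 3 and 1 in siMLK4 cells. DPP6, which rose in siNT cells, is on that list but is an auxiliary subunit of Kv4 potassium channels and not an active peptidase. The 35 members on no list had 7 falls and 2 rises in siNT cells.

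EGLN3, a prolyl hydroxylase that marks hypoxia-inducible factor for degradation, had the largest log2 fold change of any member on the deposited scale, which understates genes with few reads. It rose from 172.6, 147.4 and 113.4 to 1162, 1073 and 897.3 normalised reads in siNT cells, 7.23 times the vehicle level (log2 fold change 2.498, SE 0.13, adjusted p = 1.6e-08). In siMLK4 cells it rose from 116.2, 145.5 and 127.6 to 437.5, 419.4 and 432.8, 3.31 times (1.43, adjusted p = 1.1e-06). All doxorubicin libraries lay above all vehicle libraries, and the siMLK4 and siNT doxorubicin libraries did not overlap. EGLN3 is a member through its annotated span of 538.5 kb, while its canonical transcript covers 26.8 kb and starts inside the span, where the printed promoter lies.

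**Figure D4:**
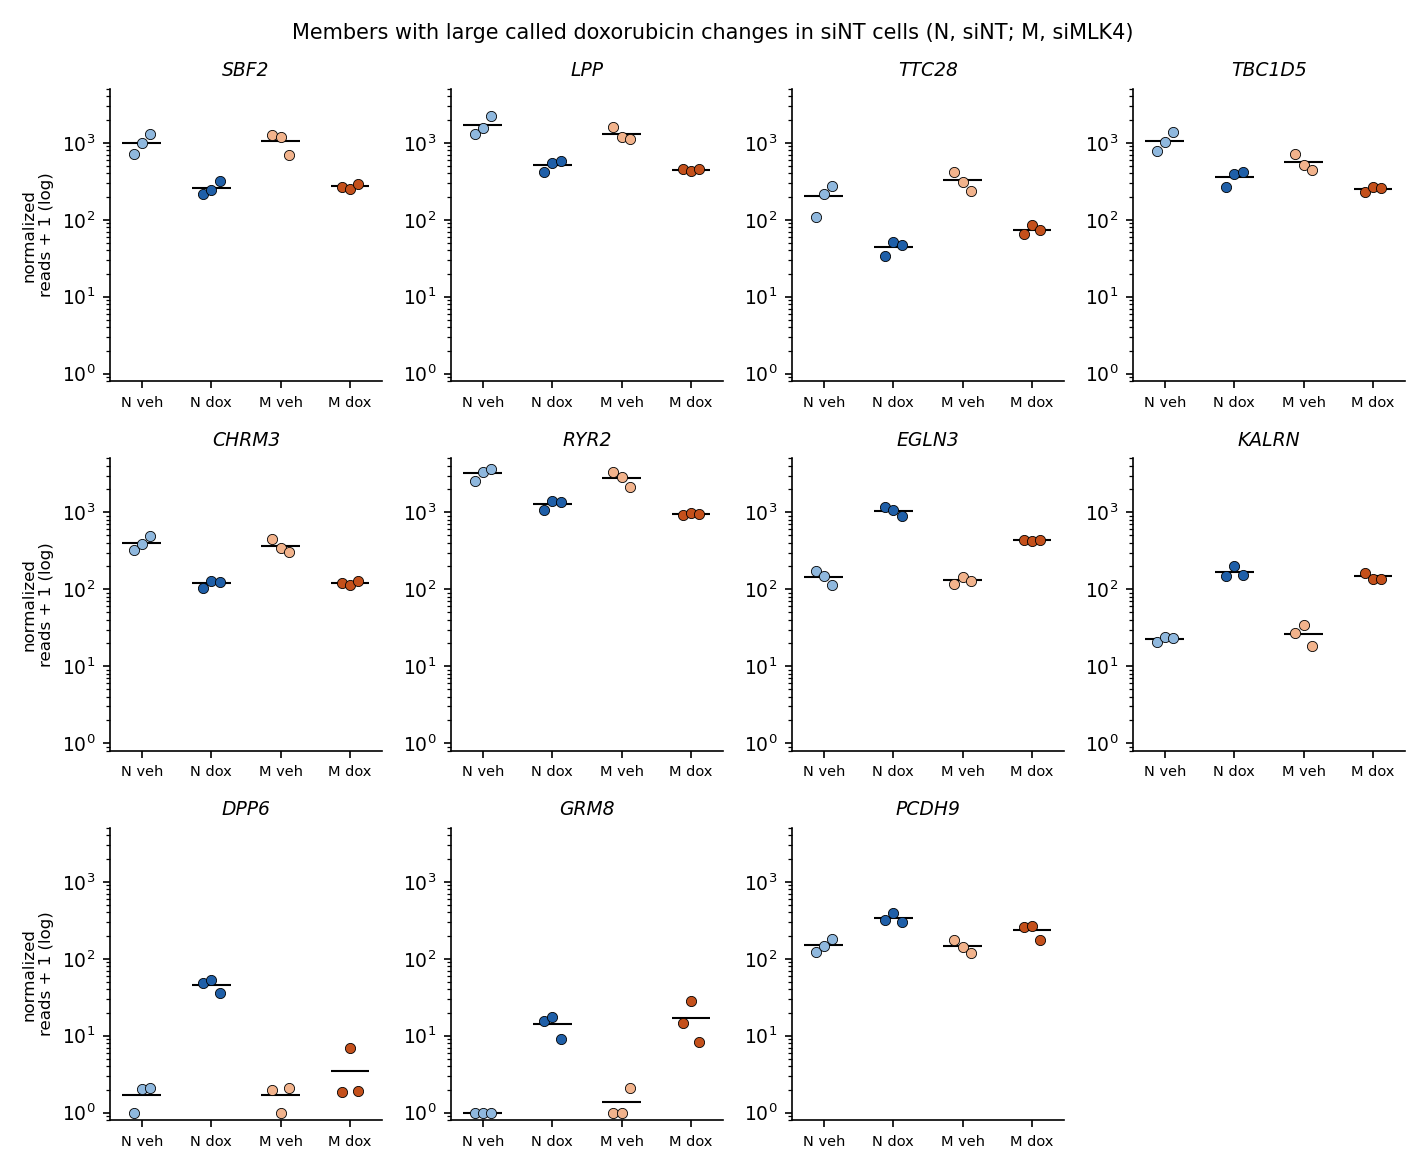
Normalised reads plus 1 on a log axis in each of the 12 libraries for the 6 members with the largest falls on the deposited log2 scale (SBF2, LPP, TTC28, TBC1D5, CHRM3, RYR2) and 5 of those with the largest rises (EGLN3, KALRN, DPP6, GRM8, PCDH9) in siNT cells, where N is siNT, M is siMLK4, veh is vehicle, dox is doxorubicin and lines are group means. In the falling genes the 3 doxorubicin points lie below all vehicle points for both siRNAs, and DPP6 stands high in siNT cells with doxorubicin at 34.47 to 51.91 against 0.8480 to 5.837 in siMLK4 cells.

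The 5 longest members did not pass the threshold with doxorubicin in siNT cells. DMD, dystrophin, which links actin to the dystroglycan complex, spans 2241.9 kb with 79 exons and had 89.24, 158.8 and 186.3 normalised reads with vehicle and 91.36, 115.0 and 133.8 with doxorubicin, which overlap (78.3%, adjusted p = 0.33). DLG2, a synaptic scaffold of 2173.3 kb, had 153.7% of the vehicle level (adjusted p = 0.18), and CSMD1, a complement-regulating membrane protein of 2059.6 kb, 71.7% (adjusted p = 0.081). MACROD2, an ADP-ribose hydrolase of 2057.8 kb, had 109.6% (adjusted p = 0.75). EYS, a photoreceptor protein of 1987.2 kb, had 5.871, 3.115 and 2.245 normalised reads with vehicle and 12.92, 13.23 and 16.22 with doxorubicin, with a log2 fold change of 0.50 on the compressed scale. It reached 10 reads in the siNT doxorubicin libraries alone and so owed its row to them, and its values are a description. Of the most abundant members per kb of exon, ADK fell as given above and GMDS fell to 56.4% in siNT cells (−0.77, adjusted p = 0.00019). The GMDS call was lost without siNT vehicle replicate 1 (−0.64). PTPRK at 103.2%, EXOC6B at 89.3% and PARD3 at 86.2% were not called in siNT cells.

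Of 21 genes listed at common fragile sites, 14 had a row, and all 14 were members, while FHIT, CTNNA3, CNTNAP2, DAB1 and LSAMP were among those without one. In siNT cells 2 fell (NBEA and PDE4D) and 0 rose, with a median log2 fold change of −0.24, and in siMLK4 cells 5 fell and 0 rose, with a median of −0.18. All rows had 10.6% lower in each and 12.1% and 12.6% higher, and with 14 genes the siNT count on the deposited scale lies near that background. PDE4D, a cyclic AMP phosphodiesterase, went from 278.3, 153.7 and 376.1 to 111.7, 135.4 and 140.9 normalised reads in siNT cells (−0.78, adjusted p = 0.0042) and to 44.9% in siMLK4 cells. Its siNT call rested on single libraries, since dropping vehicle replicate 1 (−0.73), vehicle replicate 3 (−0.54), doxorubicin replicate 1 (−0.70) or doxorubicin replicate 2 (−0.81) of these cells ended it. NAALADL2, a glutamate carboxypeptidase-like membrane protein, fell in siMLK4 cells from 137.3, 73.73 and 135.1 to 15.26, 12.51 and 18.15 (−1.52, adjusted p = 2.8e-06). LRP1B, a large lipoprotein receptor relative, fell there to 29.5% and IL1RAPL1, a synaptic receptor protein, from 21.04, 16.94 and 19.46 to 1.696, 0.8338 and 2.722, 11.1-fold lower (exact 95% counting interval 4.78 to 31.5). WWOX, an oxidoreductase spanning 1113.3 kb, stood at 54.8% in siNT cells (means 106.2 and 58.15 normalised reads, limma, adjusted p = 0.00039). Its log2 fold change was −0.56 on the deposited scale, short of the fold threshold, but that scale still understates changes at this level. RORA, a nuclear receptor, had 267.7% and a log2 fold change of 0.74 on the same scale, just short of the fold threshold. It passed when vehicle replicate 1 (0.79) or doxorubicin replicate 3 (0.85) of siNT cells was dropped. AUTS2 at 66.8%, CDH13 at 71.4%, IMMP2L at 98.6% and CCSER1 at 140.7% were not called.

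The knock-down changed few members. With vehicle, 7 members were lower (3.85%, beside 3.14% of all rows) and 7 higher (3.85%, beside 2.51%) in siMLK4 than in siNT cells. With doxorubicin 6 were lower (3.3%, beside 2.93%) and 4 higher (2.2%, beside 2.66%). The median log2 fold change over members was 0.06 with vehicle and 0.02 with doxorubicin (all rows 0.01 and 0.02), and against shorter genes of equal mean it was 0.00 and −0.07. On the deposited scale these shares lie near those of all rows. With vehicle, log2(normalised reads + 1) called 13 members lower and 14 higher, and all rows had 718 lower and 895 higher of 17013. Limma-voom on the recovered reads called 11 lower and 13 higher, beside 697 and 786 of all rows. In 3 members the fall was called in both conditions, PALM2AKAP2, NRG1 and INPP4B (a phosphoinositide phosphatase, named here after its values were seen), and in 1, ANK3, the rise was. These are 1.65% and 0.549% of the members, beside 1.69% and 0.811% of all rows. Fitted on the vehicle libraries alone, 1 member was called lower and 4 higher with vehicle, and all rows also dropped, to 2.12% lower and 1.48% higher. NRG1 (adjusted p = 0.0045), PPP2R2B (0.0031), NAALADL2 (0.0072) and LUZP2 (0.0052) kept their vehicle calls in that limma fit. PALM2AKAP2 (0.012), INPP4B (0.039), ANK3 (0.015), TRHDE (0.034) and KCNQ5 (0.031) lost theirs by adjusted p. Their log2 fold changes there, −1.21, −0.8, 1.17, −0.9 and −0.86 in the same order, stayed beyond the fold threshold.

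PALM2AKAP2, a locus that joins a paralemmin and an anchoring protein for protein kinase A, had 1423, 1892 and 2115 normalised reads in siNT and 931.8, 792.1 and 548.1 in siMLK4 cells with vehicle. With doxorubicin it had 651.5, 916.1 and 1002 against 330.7, 457.8 and 298.5. The siMLK4 libraries lay below the siNT libraries in both conditions, at 41.8% (log2 fold change −1.21, SE 0.21, adjusted p = 0.00084) and 42.3% (−1.13, adjusted p = 0.0014), and the second call was lost without siNT doxorubicin replicate 3 (−1.01). NRG1, neuregulin 1, a ligand of the receptors ERBB3 and ERBB4, was at 44.6% with vehicle (1717, 1310 and 1879 against 758.4, 725.4 and 704.9, log2 fold change −1.10, adjusted p = 4.5e-05) and at 48.5% with doxorubicin (−0.97, adjusted p = 0.00014). ANK3, ankyrin G, which anchors membrane proteins to spectrin, was higher, with 566.0, 605.3 and 973.3 in siNT and 2014, 1475 and 1450 in siMLK4 cells with vehicle (1.17, adjusted p = 0.0004). With doxorubicin it was 2.28 times the siNT level (1.12, adjusted p = 0.00055). The siMLK4 libraries of ANK3 lay above the siNT libraries in both conditions.

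Other knock-down calls were made in 1 condition. With vehicle, PPP2R2B, a regulatory B subunit of protein phosphatase 2A, went from 57.54, 67.48 and 72.97 in siNT to 267.5, 193.3 and 320.0 in siMLK4 cells (1.44, SE 0.17, adjusted p = 3.5e-05). NAALADL2 was at 4.28 times and LUZP2, a leucine zipper protein, at 3.11 times the siNT level. All 3 stood clear of the siNT libraries. With doxorubicin PPP2R2B had 46, 26 and 46 reads before scaling in siNT and 113, 82 and 118 in siMLK4 cells, without overlap (limma, adjusted p = 0.0055). Its log2 fold change of 0.73 was just short of the fold threshold on the deposited scale, which understates changes at this level, so its rise was not confined to vehicle. NAALADL2 and LUZP2 had adjusted p of 0.58 and 0.15 with doxorubicin. TRHDE, a peptidase that degrades thyrotropin-releasing hormone, was at 43.1% (−0.90, adjusted p = 0.006) and KCNQ5, a potassium channel, at 42.2% (−0.86, adjusted p = 0.0046) with vehicle. Each of these calls depended on single libraries. Among vehicle libraries, dropping replicate 2 (−0.77) or 3 (−0.83) of siNT cells, or replicate 2 (−0.93) or 3 (−0.73) of siMLK4 cells, ended the TRHDE call. For KCNQ5, dropping replicate 2 (−0.84) or 3 (−0.70) of siNT or replicate 3 (−0.71) of siMLK4 cells did so.

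With doxorubicin SEMA3A, a secreted semaphorin, had 857.3, 1039 and 1076 normalised reads in siNT and 424.0, 383.6 and 451.8 in siMLK4 cells (−1.14, SE 0.15, adjusted p = 0.00011), and NFIA, a nuclear factor I transcription factor, had 434.7, 392.9 and 426.8 against 769.9, 895.5 and 734.9 (0.86, adjusted p = 0.00015). EGLN3 in siMLK4 cells stood at 41.2% of the siNT level (−1.18, adjusted p = 3.4e-05) and ATRNL1 at 3.62 times (0.98, adjusted p = 0.00026).

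**Figure D5:**
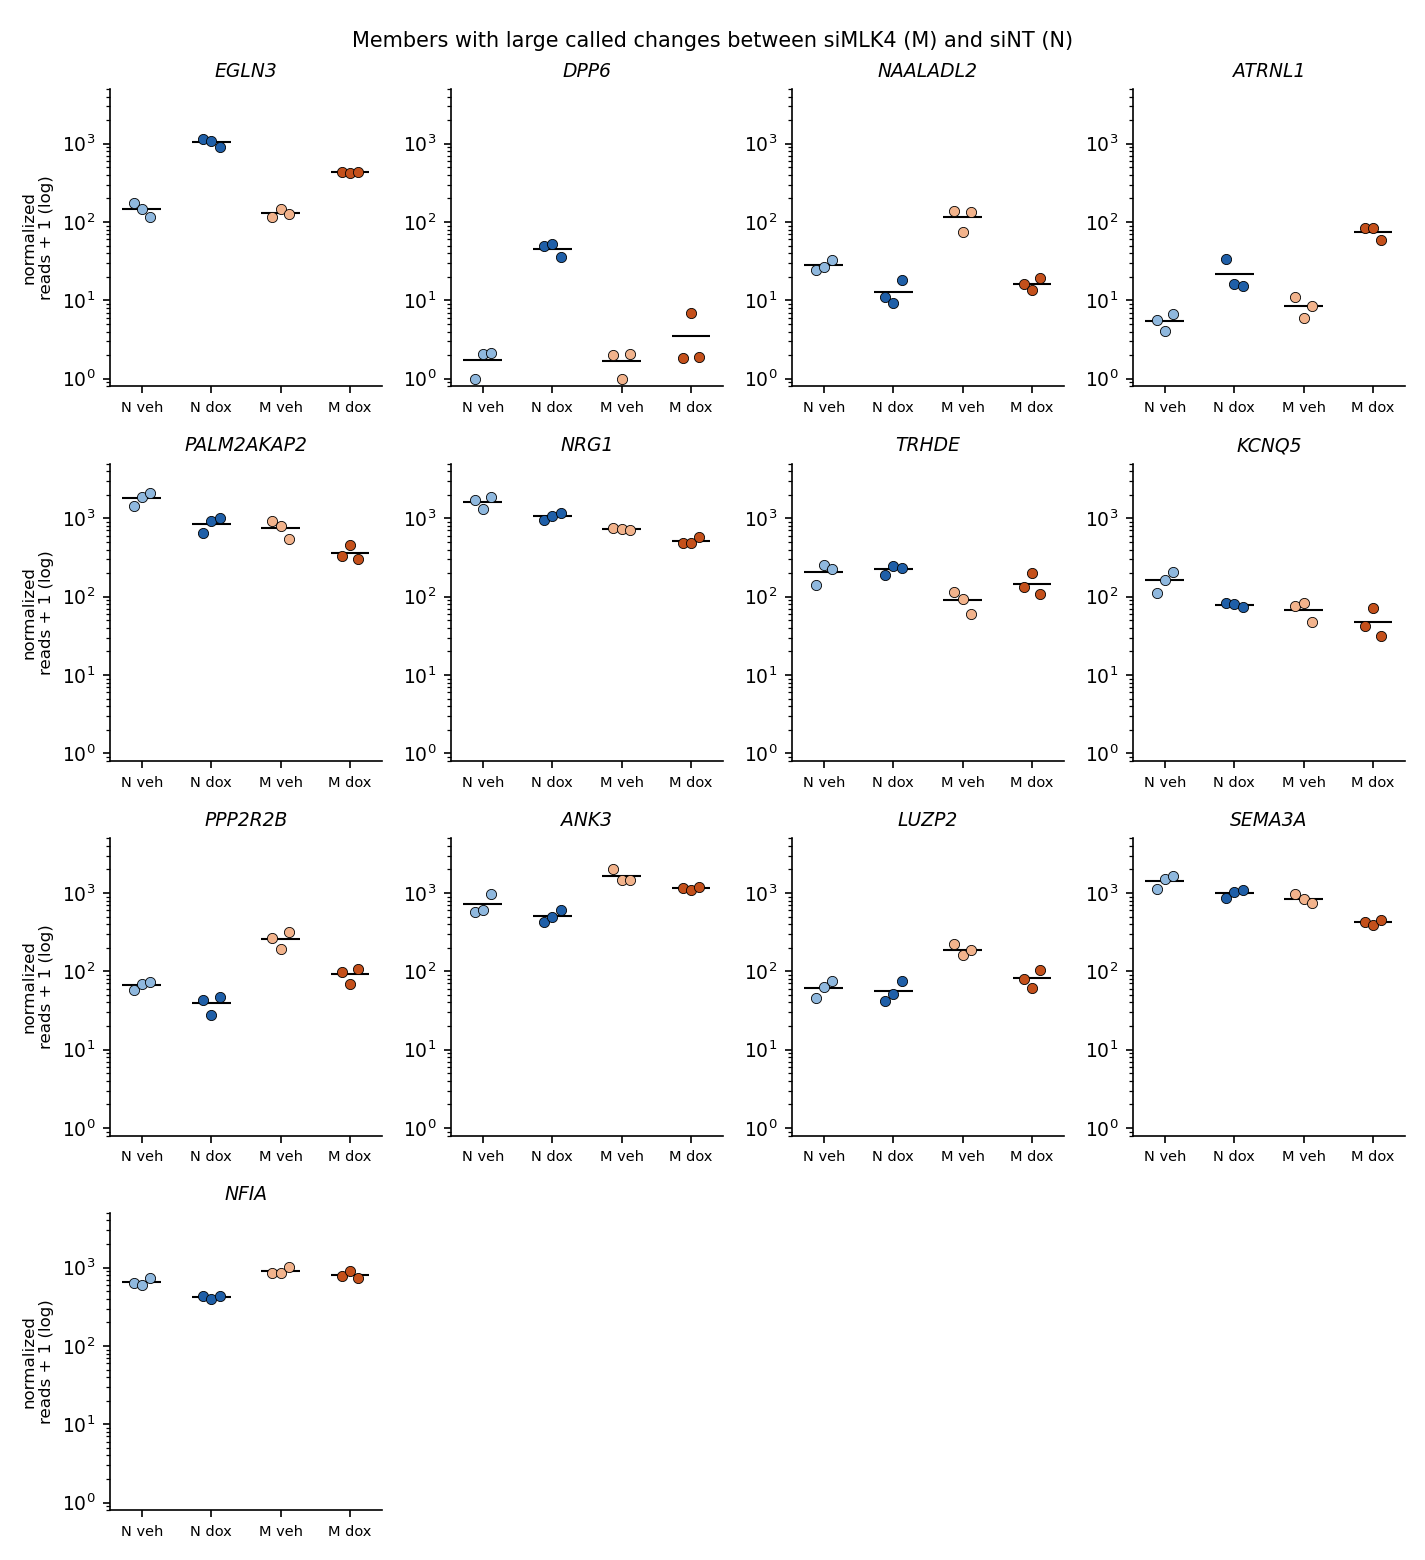
Normalised reads plus 1 on a log axis in the 12 libraries for 13 members with the largest called knock-down changes, with N for siNT, M for siMLK4, veh for vehicle, dox for doxorubicin and lines at group means. PALM2AKAP2 and NRG1 lie lower and ANK3 higher in siMLK4 cells in both conditions, while PPP2R2B, NAALADL2 and LUZP2 were called higher with vehicle and not with doxorubicin, a difference that was itself not called.

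Whether the knock-down altered the doxorubicin response was tested as the difference of the responses. Of the members 1 was called lower (beside 0.176% of all rows) and 0 higher (beside 0.0999%), and 30 members (16.5%) had an unadjusted p under 0.05, beside 14.5% of all rows. The call was DPP6, which had 0, 1.038 and 1.123 normalised reads in siNT cells with vehicle and 47.99, 51.91 and 34.47 with doxorubicin. Summed reads were 2 and 137, a ratio of 60.7 after scaling (exact 95% counting interval 16.5 to 506.0, for counting error only). In siMLK4 cells it had 1.002, 0 and 1.081 with vehicle and 0.8480, 5.837 and 0.9073 with doxorubicin. DPP6 reached 10 reads in the siNT doxorubicin libraries alone, so a difference between groups was built into its presence in the table, and its p carries that limit. The difference of the log2 fold changes was −1.34 (SE 0.20, adjusted p = 0.0056). With the replicate number as a block the difference was the same and the adjusted p 0.012, so that 0 members were called. Limma-voom on the recovered reads called 0 as well, with a larger DPP6 difference of −4.21 and a larger SE of 1.0 (adjusted p = 0.076). The call was kept without siMLK4 doxorubicin replicate 2 and lost without any other 1 of the 12 libraries, with differences from −1.435 to −1.245. For EGLN3 the difference was −1.07 (SE 0.19, adjusted p = 0.013) and for NAALADL2 −1.06 (adjusted p = 0.033), neither called. The 2 doxorubicin comparisons share no libraries, but each knock-down comparison shares its libraries with them.

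In 8 members another measured protein-coding gene lay wholly inside the span, 2 of them on the host's strand. In each doxorubicin comparison 1 of these nested genes rose and 1 fell, and 0 were called by knock-down. FLRT3, a cell adhesion gene on the opposite strand within MACROD2, fell (log2 fold change −1.43 in siNT and −1.24 in siMLK4 cells) where MACROD2 had 0.05 and 0.44. CSTF2T, an RNA 3′ end processing gene inside PRKG1, rose (0.82 and 0.90) where PRKG1 had 0.41 and 0.21. MAB21L1 inside NBEA had 0.29 where NBEA fell by 1.01 on the log2 scale, and SPTSSA inside EGLN3 had 0.11 where EGLN3 rose. In the other 4 pairs, MDH1 in WDPCP, SETMAR in SUMF1, TRIM32 in ASTN2 and SCHIP1 in IQCJ-SCHIP1, neither gene was called with doxorubicin. The counting was stated to use strand, and reads of same-strand pairs such as IQCJ-SCHIP1 and SCHIP1 cannot be told apart where exons are shared.

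The machinery that long genes depend on was described from lists chosen with earlier results known, whose counts stand beside 10.6% of all rows lower and 12.1% higher in siNT and 10.6% and 12.6% in siMLK4 cells. Of 35 transcription elongation genes 33 had a row, with 3 higher and 2 lower in siNT and 4 and 2 in siMLK4 cells. POLR2A, the largest subunit of RNA polymerase II, had 2152, 4420 and 5509 normalised reads in siNT cells with vehicle and 19510, 26350 and 19120 with doxorubicin (log2 fold change 2.499, adjusted p = 2.3e-05). HEXIM1, which holds the elongation kinase P-TEFb inactive, rose to 3.5 times (1.75, adjusted p = 6.6e-07). SSRP1, of the histone chaperone FACT, fell to 49.5%, and MLLT1, of the super elongation complex, to 53.3% in siNT cells, while MLLT1 had 114.2% in siMLK4 cells. The difference of the 2 MLLT1 responses was 1.07 (limma, SE 0.21, adjusted p = 0.024), which was not called. Among siMLK4 and siNT vehicle libraries POLR2A was high where the members were high, at 10280, 8062 and 4648 in siMLK4 cells, and its part in the members' levels was not tested.

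Of 20 topoisomerase and long-intron processing genes, 4 fell and 0 rose in siNT cells and 5 fell and 0 rose in siMLK4 cells. SNRPA, a protein of the U1 splicing particle, went to 45.7% and SFPQ, an RNA-binding protein needed for long-intron transcripts, to 49.3% in siNT cells. The topoisomerases were looked at after their values were known. TOP2A, the topoisomerase II of dividing cells, had 105.8% (adjusted p = 0.51) in siNT cells, TOP2B 65.8% (log2 fold change −0.60, adjusted p = 0.00077) and TOP1 162.8% (0.70, adjusted p = 7e-05), none past the fold threshold, and in siMLK4 cells TOP2B fell to 55.8% (−0.82).

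Markers of cell identity moved with doxorubicin beside the members. Of the 8 basal and squamous markers 6 fell and 0 rose in each siRNA group, led in siNT cells by ITGB4, an integrin of hemidesmosomes, at 30.8% (−1.68) and TP63, the basal transcription factor, at 32.1% (−1.60). Of the 5 hormone receptor markers 1 rose and 0 fell in siNT cells, and 1 rose and 1 fell in siMLK4 cells. PGR, the progesterone receptor, had 0 reads in all vehicle libraries and 18.46, 12.21 and 9.125 normalised reads with doxorubicin in siNT cells, and it owed its row to doxorubicin libraries. ESR1, the oestrogen receptor, fell in siMLK4 cells to 41.82% (−0.78, adjusted p = 0.0014). It stood at 50.2% in siNT cells (−0.61, adjusted p = 0.0072), short of the fold threshold on the deposited scale. LUM, lumican, was the 1 stromal, endothelial or immune marker of 6 that fell in siNT cells, to 15.3%, and in siMLK4 cells it fell to 8.67% while PTPRC, the leukocyte antigen CD45, rose from 0, 1.993 and 3.243 to 11.87, 20.85 and 20.87. PTPRC too reached 10 reads in doxorubicin libraries alone. Since very long genes are often neuronal, 8 neuronal markers were read as well. RBFOX3, SYN1 and SNAP25 had no row, MAP2 was the most abundant in every library, and 0 of the 5 measured were called in siNT cells. The sum of the 5 was 231.3 to 396.3 normalised reads with vehicle and 338.7 to 392.9 with doxorubicin in siNT cells. In siMLK4 cells it was 242.2 to 399.8 and 365.6 to 533.6, and SLC17A7, a vesicular glutamate transporter, was called higher there (1.44). The part of these markers in the members' changes was not tested.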

How the data were processed

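The authors deposited 1 table of log2-scale values for 12 libraries. Per the labels' processing notes and the supplementary methods, reads were trimmed (Trimmomatic 0.39), mapped (HISAT2), counted per gene by strand (HTSeq 0.6.0) and processed with DESeq2 1.26.0. The labels name build hg19 and the methods GRCh38, and coordinates here are GENCODE 44 on GRCh38. The deposited log2 values are a variance-stabilizing transformation. Inverting it gave whole reads within 0.05 for every value. The main fit nevertheless used the deposited values and no count model was run. In it limma 3.58.1 in R 4.3.3 (lmFit, eBayes with trend) took all 12 libraries and 17013 rows (16957 annotated), with Benjamini-Hochberg adjustment. Its calls therefore rest on the compressed scale, and limma-voom on the recovered reads was an alternative. Genes were called below an adjusted p of 0.01 when the log2 fold change exceeded 0.75 in size. On simulated data for doxorubicin in siNT cells, 80% of 2-fold and 100% of 4-fold changes were recovered, with 0 false calls among the unchanged genes of 17013 simulated ones. The simulation gave every gene the same spread between replicates (negative binomial dispersion 0.01) and placed no changes in the genes with fewest reads. Whether these shares hold at the spread of the real libraries, or for members with few reads, was not tested.

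Members, lists, alternatives and the naming rule were chosen with earlier results of these data known. Named were the 5 longest members, the 5 with most reads per exon kb, the 6 largest called changes in each direction for doxorubicin in siNT cells, 4 in each direction in the other comparisons, every called interaction, measured fragile-site genes, and from the other lists the 2 largest called changes in each direction. Some items under this rule are not reported here. Groups came from the labels. Replicates 2 and 3 of siMLK4 with doxorubicin carry the same library index in 1 label, but their titles differ and their reads differed beyond sampling noise (chi-square per degree of freedom 25.22), so both were kept. Deviations of same-numbered libraries between treatments had correlations of 0.46, 0.11 and 0.2 in siNT and −0.08, 0.18 and 0.34 in siMLK4 cells. Between siRNAs the correlations were 0.19, 0.52 and 0.56 with doxorubicin and −0.72, 0.32 and −0.52 with vehicle. Any pairing is read from these values alone, and they do not show it throughout. A floor of 3 reads per library set lower bounds, and these cover counting error only. Reads carry no molecular identifiers.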

Additional observations from a re-analysis of the deposited data

Results flagged for a closer look

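DPP6 was flagged because its doxorubicin response differed between the siRNA groups by a test of the difference itself. The interaction in limma was −1.341 on the log2 scale (SE 0.20, adjusted p = 0.0056), where the log2 fold change with doxorubicin was 1.55 in siNT and 0.21 in siMLK4 cells. All 3 siNT libraries with doxorubicin lay above the other 9 libraries. Since DPP6 reached 10 reads in those 3 libraries alone, it entered the table through them, and a difference between groups was built into its presence. The adjusted p was 0.012 with the replicate block, where it was no longer called, at the same difference. By limma-voom the difference was −4.21 (SE 1.0, adjusted p = 0.076) and on log2(normalised reads + 1) −3.95 (SE 0.8, adjusted p = 0.033), larger in size but not called.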

How the results depend on the processing

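Counts are members called in either direction, medians are log2 fold changes, and comparisons come in the order doxorubicin in siNT cells, doxorubicin in siMLK4 cells, knock-down with vehicle, knock-down with doxorubicin and interaction, with reported counts of 40, 54, 14, 10 and 1. Scaling by library totals gave doxorubicin medians of 0.051 and 0.005, a shift shared by all rows, and turned the small siNT values of EXOC6B (0.093), PARD3 (0.025) and IMMP2L (0.168). Size factors from coding genes under 100 kb gave 2 interaction calls and IMMP2L at 0.039. On log2(normalised reads + 1), which compresses low counts less than the deposited scale, 64 members (35.2%, beside 32.9% of all rows) were called in siNT cells, 27 and 19 (14.8% and 10.4%, beside 9.48% and 8.12%) for the knock-downs and 0 for the interaction, with a siMLK4 median against shorter genes of equal mean of −0.334. Limma-voom on the recovered reads called 60 members (33.0%, beside 31.8%) in siNT cells, 24 and 19 (13.2% and 10.4%, beside 8.72% and 8.62%) for the knock-downs and 0 for the interaction, with −0.336 for that median and IMMP2L at 0.002. With at least 10 reads required in every library the siMLK4 median was −0.279 and 0 interactions were called, since DPP6 was not tested. Fitting the vehicle groups alone left 5 knock-down calls (2.75%, beside 3.59% of all rows). An adjusted p under 0.05 with no fold threshold called 96, 106, 52, 45 and 4 members (52.7, 58.2, 28.6, 24.7 and 2.2%, beside 57.3, 57.9, 25.8, 24.8 and 1.2% of all rows). Spans of at least 400 kb (303 genes) gave 66, 82 and 23 calls in the first 3 comparisons. They split into 47 lower and 19 higher, 57 and 25, and 10 and 13. All rows had 10.6% lower and 12.1% higher, 10.6% and 12.6%, and 3.14% and 2.51% in these comparisons. Spans of at least 750 kb (76 genes) gave 19, 24, 6 and 5, with siMLK4 medians of −0.253 and, against shorter genes, −0.338. These counts split into 13 lower and 6 higher, 18 and 6, 3 and 3, and 3 and 2. Canonical transcripts of at least 500 kb (134 genes) gave 7 and 4 knock-down calls. With vehicle these were 2.99% lower and 2.24% higher, and with doxorubicin 1.49% and 1.49%. All rows had 2.93% lower and 2.66% higher for the knock-down with doxorubicin. Gene sets of another size give other counts by construction, and elsewhere the cause was not tested.

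With the replicate block the interaction count was 0, and the counts of the other comparisons were 40, 53, 12 and 10.

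Leaving out 1 library at a time gave 33 to 41, 46 to 56, 10 to 17, 8 to 13 and 0 to 1 calls. The medians ranged from −0.186 to −0.005, −0.172 to −0.088, 0.0 to 0.128, −0.015 to 0.054 and −0.057 to 0.054. Against shorter genes of equal mean they ranged from −0.191 to −0.064, −0.237 to −0.131, −0.05 to 0.073, −0.111 to −0.024 and −0.071 to 0.033. The siNT values that turned sign had uncalled reported values near 0 and ranged from −0.089 to 0.214 for PTPRK (also −0.049), −0.083 to 0.123 for IMMP2L (also 0.065), −0.03 to 0.126 for MACROD2 (also −0.001) and −0.325 to 0.036 for EXOC6B. Of the members, 31.32% had a mean under 30 normalised reads, and how well changes are detected at that level was not tested.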
